A study of Homo sapiens with 6 samples.

Results

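The keratins described here are 10 genes, KRT7, KRT8, KRT10, KRT15, KRT17, KRT18, KRT19, KRT80, KRT81 and KRT86, of 23368 genes in the deposited count table. Their rows were taken by gene symbol, and all 10 were found. The keratins, and the gene lists set beside them, were chosen with earlier results of these data known. RNA was sequenced from H2122 cells, an established human lung adenocarcinoma line, in 6 libraries. In 3 libraries the cells had been transfected for 48 hours with an shRNA against LYCAT, and in the other 3 with a control shRNA for the same time. LYCAT is an older name of LCLAT1, an acyltransferase of phospholipids. The cells of both groups were of the same line and differed by label only in the shRNA, so loss of LCLAT1 and other effects of that hairpin cannot be told apart. Nothing in the labels tells whether replicate libraries were grown as separate cultures. The p-values therefore reflect library-to-library spread alone, and this can be technical.

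Keratins are the intermediate filament proteins of epithelial cells. A filament is built from heterodimers of an acidic type I keratin and a basic type II keratin, so each type needs a partner of the other. KRT8 and KRT18 form the primary filaments of simple epithelia, where KRT7 and KRT19 are often added, and lung adenocarcinomas are commonly positive for KRT7. KRT81 and KRT86 are type II hair keratins of the hair cortex. Of the 10 genes, KRT10, KRT15, KRT17, KRT18 and KRT19 encode type I keratins and the other 5 encode type II keratins. KRT18 is the type I gene that lies on chromosome 12 beside KRT8 and the type II genes, while the other type I members lie on chromosome 17.

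Deposited counts summed to 3118946 to 4730453 per LYCAT shRNA library and 4075367 to 4930079 per control library. The 10 keratins took 0.0934% to 0.102% of the counts in the LYCAT shRNA libraries and 0.108% to 0.117% in the control libraries. Levels are given in CPM, counts scaled to the TMM-adjusted library size, and 3 counts correspond to 0.608 to 0.967 CPM in these libraries. LCLAT1, the target of the hairpin, stood at 18.9, 22.6 and 23.6 CPM with LYCAT shRNA and at 56.8, 61.2 and 65.3 CPM with control shRNA. Its log2 fold change of LYCAT shRNA over control shRNA was -1.50 (SE 0.114, edgeR quasi-likelihood adjusted p = 1.15e-18), so the reduction was partial. Control libraries 1 and 2 stood apart from the other 4 libraries in fibroblast and matrix genes, the summed level of 14 fibroblast markers being 82.1, 34.5 and 63.1 CPM in LYCAT shRNA libraries 1, 2 and 3 and 198.9, 312 and 58.9 CPM in control libraries 1, 2 and 3. Each keratin result that changes without these 2 libraries is given in both ways, and the part of these markers in the results was not tested.

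KRT18 and KRT7, keratins of simple epithelia, were the most abundant of the 10, and KRT10, best known from epidermis, came next. Levels between genes were compared per kilobase of the principal GENCODE v29 transcript. KRT18, KRT8, KRT81 and KRT86 share much of their sequence with other genes, as described below. Their places in this order therefore depend on how multiply mapped reads were counted, which the sources do not state. KRT18 was the highest, at 274 ± 22.7 CPM per kilobase with LYCAT shRNA and 321 ± 25.8 with control shRNA (SD, n = 3 each). KRT7 followed at 149 ± 8.82 and 184 ± 6.23 CPM per kilobase, and KRT10 at 68.2 ± 3.71 and 66.3 ± 4.23, in the same order of groups. KRT8 and KRT19 came next and, per kilobase of transcript, did not differ from each other beyond their spread. They stood at 28.2 ± 3.04 and 32.4 ± 5.93 CPM per kilobase with LYCAT shRNA and at 38.3 ± 3.60 and 34.1 ± 3.06 with control shRNA. Per kilobase of coding sequence, the mean of KRT8 was above that of KRT19 in both groups. These means were 41.3 and 37.4 with LYCAT shRNA and 56.1 and 39.4 with control shRNA. No SD was computed on this length, and with LYCAT shRNA the means were close. KRT81 stood sixth in both groups, at 18.7 ± 0.765 CPM per kilobase with LYCAT shRNA and 11.1 ± 1.36 with control shRNA. Per kilobase of transcript, KRT80 and KRT17 stood in a different order in each group: 2.04 ± 0.479 and 3.16 ± 0.497 CPM per kilobase with LYCAT shRNA, and 3.33 ± 0.248 and 1.89 ± 0.228 with control shRNA. That switch depends on the length used. Per kilobase of coding sequence, the mean of KRT80 was above that of KRT17 in both groups. They were 5.79 and 4.02 with LYCAT shRNA and 9.46 and 2.40 with control shRNA. KRT86 was lower, at 1.01 ± 0.465 CPM per kilobase with LYCAT shRNA and 0.834 ± 0.391 with control shRNA. KRT15 was last, near the detection floor.

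**Figure D1:**
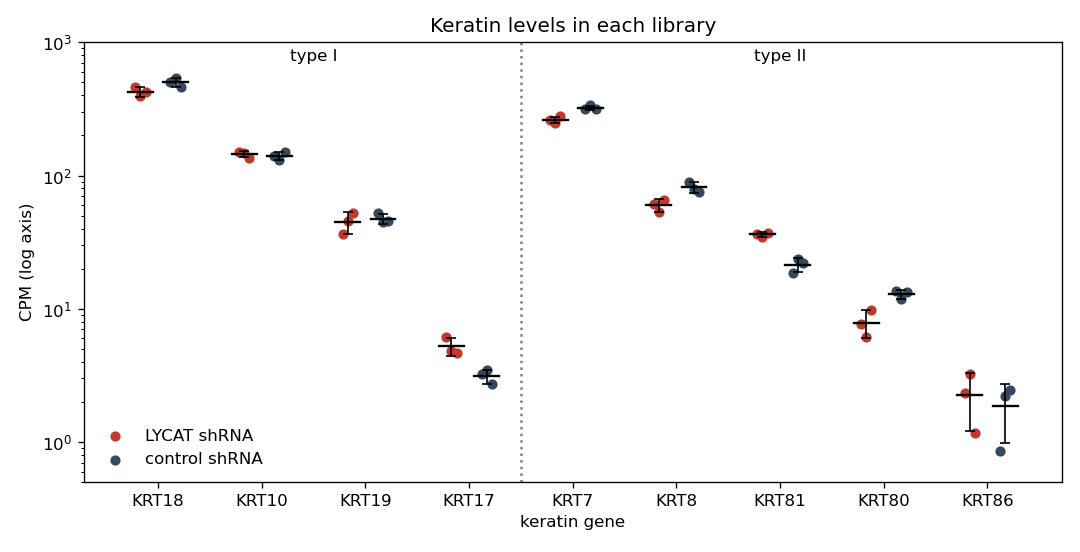
CPM (log axis) of 9 keratins in each library, LYCAT shRNA libraries in red to the left of control libraries in dark blue, with the mean and SD of each group of 3 as black lines. KRT7, KRT8 and KRT80 lay lower in all 3 LYCAT shRNA libraries than in any control library, KRT81 and KRT17 lay higher, and KRT18, KRT10, KRT19 and KRT86 overlapped. KRT15, which had 0 to 3 counts per library, is not drawn.

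With LYCAT shRNA 4 keratins fell (KRT7, KRT8, KRT18 and KRT80), 1 rose (KRT81), 4 tested members did not pass (KRT10, KRT17, KRT19 and KRT86), and KRT15 was too low to test. A gene was called changed at an adjusted p under 0.05 over all 11097 tested genes. The same fit called 9.26% of all tested genes lower, 9.81% higher and 19.1% in either direction. As the keratins were chosen with earlier results known, their number of calls beside these shares is a description only. The median log2 fold change was -0.08 over the 9 tested keratins and -0.01 over all tested genes. Without control libraries 1 and 2, 1 keratin (KRT7) was called lower and 1 (KRT81) higher. That fit keeps 1 control library, which takes its spread from the LYCAT shRNA libraries.

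KRT7, the type II keratin of ductal and many glandular epithelia, had 260, 247 and 278 CPM in the LYCAT shRNA libraries and 319, 336 and 316 CPM in the control libraries. Every LYCAT shRNA library was below every control library. The mean was 262 ± 15.5 CPM with LYCAT shRNA and 324 ± 10.9 CPM with control shRNA (SD, n = 3 each), or 80.9% of the control. KRT7 fell by 0.30 in log2 units (SE 0.0543, 95% interval -0.41 to -0.19, edgeR adjusted p = 1.21e-05), and it passed without any one library and without control libraries 1 and 2 (log2 -0.26, edgeR adjusted p = 0.0061).

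KRT8, the type II keratin of the simple-epithelial filament, had 61.2, 52.9 and 65.6 CPM with LYCAT shRNA and 90.0, 78.8 and 75.4 CPM with control shRNA. The groups did not overlap, as for 16.2% of all tested genes with LYCAT shRNA below control and 32.8% in either direction. KRT8 fell to 73.6% of the control mean (log2 -0.43, SE 0.0885, 95% interval -0.61 to -0.26, edgeR adjusted p = 0.000132). Without control libraries 1 and 2 its log2 fold change was -0.32 and it did not pass (edgeR adjusted p = 0.0845).

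KRT18, the type I partner of KRT8, had 466, 396 and 421 CPM with LYCAT shRNA and 504, 541 and 461 CPM with control shRNA. LYCAT shRNA library 1 was higher than control library 3, so the groups overlapped. The mean was 428 ± 35.5 CPM with LYCAT shRNA and 502 ± 40.4 CPM with control shRNA (SD, n = 3 each), and the log2 fold change was -0.23 (SE 0.0547, 95% interval -0.34 to -0.12, edgeR adjusted p = 0.00178). Among the keratins called lower, control library 3 was the lowest control in KRT7, KRT8 and KRT18, and control library 2 in KRT80. Any relation to the fibroblast markers was not tested. Without control libraries 1 and 2 the log2 fold change of KRT18 was -0.10 (edgeR adjusted p = 0.365).

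KRT19, a small type I keratin of simple and transitional epithelia, had 36.4, 45.8 and 52.8 CPM with LYCAT shRNA and 52.3, 44.6 and 45.3 CPM with control shRNA. The LYCAT shRNA libraries spanned the whole range of the controls. Its log2 fold change was -0.08 with a 95% interval of -0.30 to 0.13 (edgeR adjusted p = 0.655), an interval whose lower end is close to the fall of KRT7.

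The balance of the filament partners was also computed. KRT8 over KRT18, both in CPM, was 0.131, 0.134 and 0.156 with LYCAT shRNA and 0.179, 0.146 and 0.164 with control shRNA, and these ratios overlapped. Both transcripts share sequence with many pseudogenes and in part with each other, so the levels of KRT8 and KRT18 and their ratio depend on how the authors treated multiply mapped reads and strand, which the sources do not state. Summed over the 5 type II members, the level was 368 ± 24.0 CPM with LYCAT shRNA and 441 ± 11.7 CPM with control shRNA (SD, n = 3 each). Over the 5 type I members it was 623 ± 32.2 CPM with LYCAT shRNA and 693 ± 32.2 CPM with control shRNA. The sum over all 10 was 939 to 1027 CPM in the LYCAT shRNA libraries and 1087 to 1174 CPM in the control libraries, or 87.4% of the control mean. No test was made of these sums and ratios, because the members were chosen with results of these data known.

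**Figure D2:**
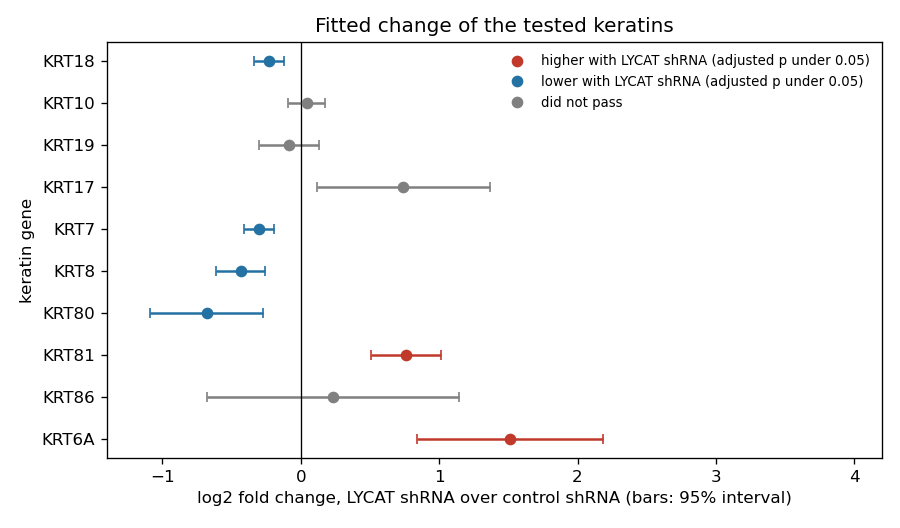
Log2 fold change of LYCAT shRNA over control shRNA for the 9 tested keratins and KRT6A, with 95% intervals of the edgeR fit as bars. KRT18, KRT7, KRT8 and KRT80 (blue) lie below 0, KRT81 and KRT6A (red) lie above 0, and the grey genes did not pass; the interval of KRT17 runs from 0.11 to 1.37, and its adjusted p was 0.0896.

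KRT81 was the keratin among the 10 that rose. It had 36.6, 34.5 and 37.4 CPM with LYCAT shRNA and 18.4, 23.5 and 22.2 CPM with control shRNA. All 3 LYCAT shRNA libraries were above all 3 control libraries, as for 16.6% of all tested genes. The mean was 36.1 ± 1.48 CPM with LYCAT shRNA and 21.4 ± 2.63 CPM with control shRNA (SD, n = 3 each), a 1.70-fold rise (log2 0.76, SE 0.126, 95% interval 0.51 to 1.01, edgeR adjusted p = 2.13e-06). KRT81 passed without any one library and without control libraries 1 and 2 (log2 0.71, edgeR adjusted p = 0.00495). Its share of the summed CPM of the 10 keratins was 3.65% ± 0.0777 with LYCAT shRNA and 1.88% ± 0.236 with control shRNA (SD, n = 3 each).

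KRT86, the other hair keratin, was counted at 11, 10 and 5 reads with LYCAT shRNA and 4, 11 and 10 reads with control shRNA. The groups overlapped, and its log2 fold change was 0.23 with a 95% interval of -0.67 to 1.14 (edgeR adjusted p = 0.781). A rise of the size seen for KRT81 lies within that interval, so the depth could not show whether the 2 genes differ. KRT81 and KRT86 are near-identical neighbours on chromosome 12 on opposite strands, and their coding sequences were 93.6% identical over 1457 aligned bases. Their longest identical run was 605 coding bases. A read that falls within this run can be given to either gene or dropped, depending on how the authors counted such reads, a setting the sources used here do not give. The single values of KRT81 and KRT86 are therefore uncertain. The sum of both was 38.9, 37.7 and 38.5 CPM with LYCAT shRNA and 19.3, 25.7 and 24.6 CPM with control shRNA, again without overlap. With KRT81, KRT86, KRT83 and KRT85 counted as 1 gene, the log2 fold change was 0.72 (edgeR adjusted p = 3.39e-06). KRT81 supplied most of the sum of both, with means of 36.1 of 38.4 CPM with LYCAT shRNA and 21.4 of 23.2 CPM with control shRNA. KRT83 and KRT85 had at most 1 count per library. These sums therefore repeat KRT81 and cannot recover reads that were dropped.

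How much sequence the keratins share with other genes differed widely between them. Cut into overlapping 50-base words, the KRT18 transcript shared 47.6% of its words with another GENCODE gene in either orientation, and 31.8% in its own orientation. The gene sharing most of them was KRT8, with 21.5%, which overlaps KRT18 in the RefSeq annotation, and 43 keratin pseudogenes were among the others. KRT8 shared 36.9% of its words, with 36 keratin pseudogenes among the genes that held them. KRT81 shared 44.6%, for the most part with KRT86, KRT86 40.5%, and KRT17 16.0%. KRT7 shared 10.8%, nearly all of it with the antisense gene KRT7-AS and only 0.997% in its own orientation. KRT10, KRT15, KRT19 and KRT80 shared between 0.328% and 1.79%. The table held 6 keratin pseudogenes, with at most 8 counts in all in any library.

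**Figure D3:**
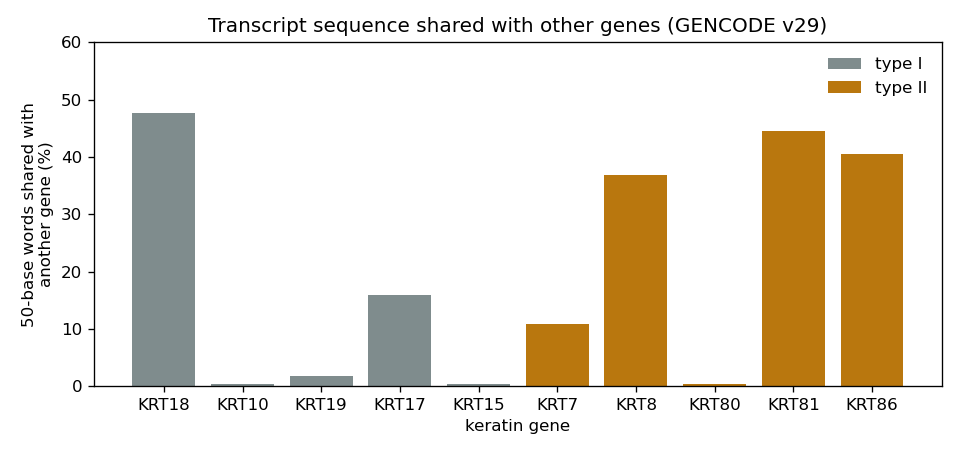
Percent of the 50-base words of each keratin's principal transcript (GENCODE v29) that also occur in a transcript of another gene in either orientation, with type I keratins in grey on the left and type II keratins in ochre. KRT18, KRT81, KRT86 and KRT8 stand at 36.9% to 47.6%, and KRT10, KRT15, KRT19 and KRT80 at under 2%.

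KRT80, a type II keratin found in many epithelia and linked to cell margins, had 7.66, 6.13 and 9.81 CPM with LYCAT shRNA and 13.5, 11.8 and 13.3 CPM with control shRNA. The groups did not overlap, and its sequence is nearly unique among annotated genes. KRT80 fell to 61.2% of the control mean (log2 -0.68, SE 0.206, 95% interval -1.09 to -0.27, edgeR adjusted p = 0.0122). Its counts were 36, 19 and 42 with LYCAT shRNA and 63, 58 and 54 with control shRNA. At that depth it did not pass without LYCAT shRNA library 1 or 2 or control library 1 (edgeR adjusted p = 0.0644, 0.0797 and 0.0503), nor with DESeq2 (adjusted p = 0.0859), nor without control libraries 1 and 2 (edgeR adjusted p = 0.0974). Its direction was the same in each of these.

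KRT10, known as the type I keratin of differentiating epidermis, had 149.9, 148.7 and 135.7 CPM with LYCAT shRNA and 140.8, 131.7 and 149.7 CPM with control shRNA. The groups overlapped over most of their range. Its log2 fold change was 0.04 with a 95% interval of -0.09 to 0.17 (edgeR adjusted p = 0.726), so a change as large as that of KRT7 or KRT8 in either direction lies outside the interval. KRT1, its usual type II partner in epidermis, had 0 counts in all 6 libraries.

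KRT17, a type I keratin induced in injured and proliferating epithelium, had 6.17, 4.84 and 4.67 CPM with LYCAT shRNA and 3.22, 3.45 and 2.71 CPM with control shRNA. The groups did not overlap, on 15 to 29 counts with LYCAT shRNA and 11 to 17 with control shRNA. The log2 fold change was 0.74 (SE 0.315) and did not pass (edgeR adjusted p = 0.0896). It was positive under every alternative that kept the gene, at 0.59 to 0.96. KRT15, a type I keratin of basal cells, had 0, 1 and 3 counts with LYCAT shRNA and 2, 3 and 0 counts with control shRNA, at or under the floor in every library, and no fold is given.

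Beside the 10, the table held 45 keratin genes, of which 36 had 0 counts in every library, among them KRT5, the defining type II keratin of basal and squamous cells. KRT14, its type I partner, had 1 count in 1 control library. The only other keratin abundant enough to test was KRT6A, a type II keratin of activated keratinocytes and a partner of KRT17. KRT6A had 22, 26 and 25 counts with LYCAT shRNA and 11, 10 and 8 counts with control shRNA, or 4.68, 8.38 and 5.84 CPM and 2.36, 2.03 and 1.97 CPM. The groups did not overlap, and KRT6A rose (log2 1.51, SE 0.338, edgeR adjusted p = 0.000478). With control counts near the filter's minimum of 10, KRT6A entered the test through the LYCAT shRNA libraries, where it is high, and the fold is imprecise. It was removed by the filter at a mean of 5 CPM, and with no filter its adjusted p was 0.00028 (edgeR). KRT6A shared 39.1% of its 50-base words with other keratins, and KRT6B and KRT6C had 0 to 2 counts per library.

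**Figure D4:**
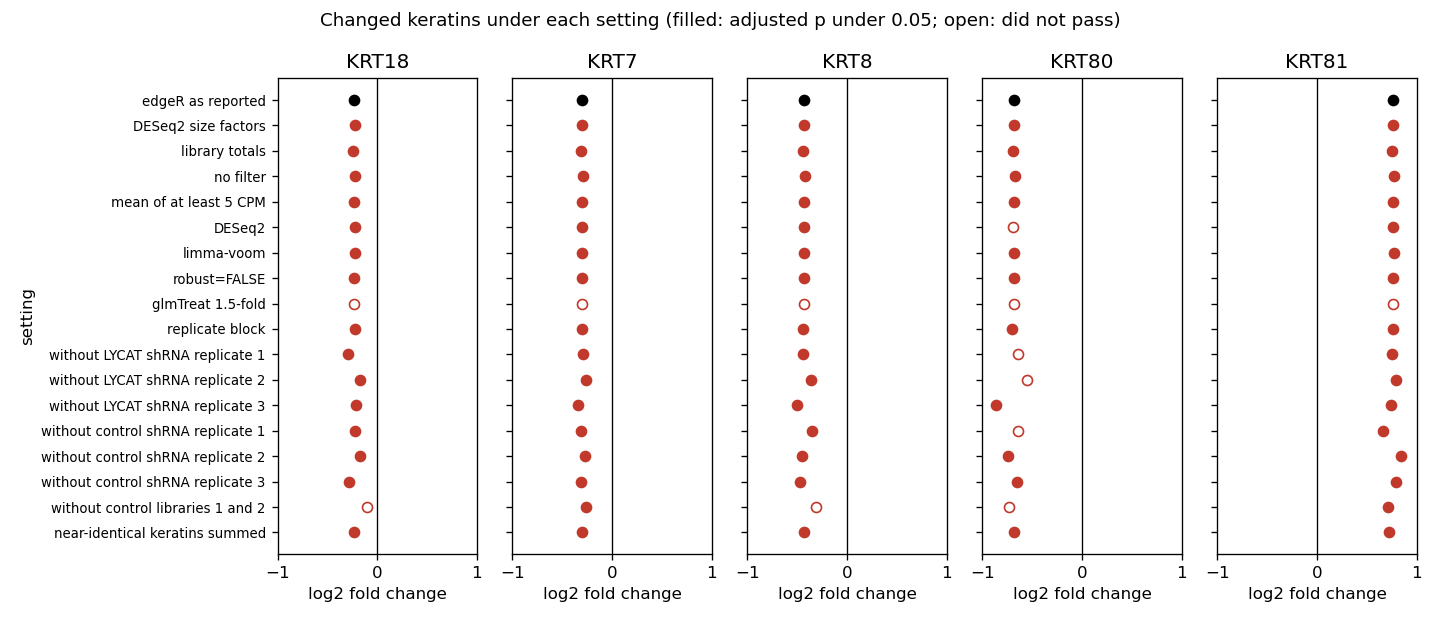
Log2 fold change of LYCAT shRNA over control shRNA for the 5 changed keratins under the reported fit (black) and each alternative (red), filled where the adjusted p was under 0.05. The direction of each gene is the same in all rows; KRT80 passes in 11 of the 17 alternatives, and no keratin passes the test against a 1.5-fold change.

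Genes for proteins that anchor or regulate keratin filaments were called in both directions. Of 17 tested members of a list of 22, 3 were called higher and 3 lower, beside 9.81% and 9.26% of all tested genes. The median log2 fold change was -0.08, against -0.01 over all tested genes. DSP, desmoplakin, which ties keratin filaments to desmosomes, stood at 233 ± 8.88 CPM with LYCAT shRNA and 270 ± 12.9 CPM with control shRNA (SD, n = 3 each), with a log2 fold change of -0.22 (SE 0.0562, edgeR adjusted p = 0.00274). PPL, periplakin, a plakin that binds KRT8 and KRT18 filaments, stood at 4.47, 6.13 and 3.97 CPM with LYCAT shRNA and 13.5, 8.51 and 6.40 CPM with control shRNA (log2 -1.01, edgeR adjusted p = 0.00307). It did not pass without control library 1 (log2 -0.66, edgeR adjusted p = 0.128). DSC2, a desmosomal cadherin, fell by 0.28 (edgeR adjusted p = 0.0222) and did not pass without LYCAT shRNA library 1 or control library 1 (edgeR adjusted p = 0.13 and 0.0502), nor with DESeq2 (adjusted p = 0.107). Without control library 1 the list had 1 member lower, and without control libraries 1 and 2 it had 0.

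SFN, the 14-3-3 protein sigma, a keratin-binding protein and a known p53 target, rose to 329 ± 17.9 CPM with LYCAT shRNA, against 214 ± 14.8 CPM with control shRNA (SD, n = 3 each). Its log2 fold change was 0.63 (SE 0.0567, edgeR adjusted p = 4.83e-15). FAM83H, which organises keratin filaments with casein kinase, rose by 0.36 (edgeR adjusted p = 2.72e-05). PERP, a desmosomal p53 target, rose by 0.16 (edgeR adjusted p = 0.0417), but not without LYCAT shRNA library 2 or 3 or control library 2 (edgeR adjusted p = 0.133, 0.197 and 0.249) nor without control libraries 1 and 2 (0.38). With library totals, DESeq2, limma-voom, robust=FALSE or the replicate block PERP did not pass either.

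Of 8 other intermediate filament genes tested, 2 were called higher and 2 lower, beside 9.81% and 9.26% of all tested genes. The median log2 fold change was -0.21, against -0.01 over all tested genes. LMNB1, lamin B1 of the nuclear lamina, fell by 0.24 (edgeR adjusted p = 0.000145) and LMNB2 by 0.19 (edgeR adjusted p = 0.0121). LMNA, which encodes lamins A and C, rose by 0.16 (edgeR adjusted p = 0.0245) and IFFO2 by 0.66 (edgeR adjusted p = 0.0117). LMNB2 did not pass without LYCAT shRNA library 2 or 3 or control library 1 or 3, LMNA without LYCAT shRNA library 1 or 3 or control library 2, and IFFO2 without LYCAT shRNA library 1 (edgeR adjusted p between 0.0544 and 0.207). Without control libraries 1 and 2, LMNA and IFFO2 did not pass either (edgeR adjusted p = 0.155 and 0.176). With DESeq2, LMNB2, LMNA and IFFO2 did not pass (adjusted p = 0.0648, 0.0706 and 0.0955), which left LMNB1 as the 1 gene called. VIM encodes vimentin of mesenchymal cells and is named here with its values known. It had 5.10, 0.967 and 4.67 CPM with LYCAT shRNA and 15.0, 14.4 and 4.43 CPM with control shRNA. VIM was high only in control libraries 1 and 2 and did not pass (edgeR adjusted p = 0.193). It was called lower by limma-voom (adjusted p = 0.00682) and by edgeR with no filter, with robust=FALSE and without control library 3 (adjusted p = 3.9e-05, 0.000513 and 8.03e-07), but not without control libraries 1 and 2 (log2 -0.20, edgeR adjusted p = 0.869).

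Epithelial identity genes beside the keratins fell in 5 of 18 tested members of a list of 20, and 13 did not pass. Of all tested genes, 9.26% were called lower. The list median was -0.14, against -0.01 over all tested genes. MAL2, a protein of apical transport, fell by 0.22 (edgeR adjusted p = 0.00105), ESRP1, an epithelial splicing regulator, by 0.22 (edgeR adjusted p = 0.00998), the protease gene PRSS8 by 0.62 (edgeR adjusted p = 0.0196) and the adaptor gene AP1M2 by 0.37 (edgeR adjusted p = 0.0224). The last of the 5, named with its values known, was CDH1, which encodes E-cadherin (log2 -0.26, edgeR adjusted p = 0.0345). EPCAM, an epithelial adhesion molecule likewise named with its values known, averaged 624 ± 8.25 CPM with LYCAT shRNA and 644 ± 16.8 CPM with control shRNA (SD, n = 3 each; edgeR adjusted p = 0.544). The count of 5 depended on single libraries: it was 2 without LYCAT shRNA library 2, control library 1 or control library 3, 3 without LYCAT shRNA library 3, and 8 without control library 2. Without control libraries 1 and 2 it was also 2, and with DESeq2 it was 1.

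The list of cornified and squamous genes held 25, of which 4 passed the low-count filter and 3 rose, beside 9.81% of all tested genes called higher. S100A7, or psoriasin, had 19, 7 and 19 counts with LYCAT shRNA and 3, 3 and 5 counts with control shRNA (log2 2.16, SE 0.471, edgeR adjusted p = 0.00034). SPRR2D, a cornified envelope precursor, had 14, 16 and 13 counts with LYCAT shRNA and 6, 1 and 5 with control shRNA (log2 1.99, SE 0.477, edgeR adjusted p = 0.00116). Both folds are imprecise at these counts. S100A7 and SPRR2D entered the test through the LYCAT shRNA libraries, where they are high, so the count of 3 leans toward genes that rose. With control library 3 as the only control, their log2 fold changes were 1.57 and 1.52, and neither gene was called. Without LYCAT shRNA library 1, S100A7 was removed by the low-count filter. SERPINB5, maspin, rose by 0.23 (edgeR adjusted p = 0.0435) and did not pass without any one library (edgeR adjusted p = 0.0591 to 0.13). Of the 25 genes 9 had 0 counts in every library.

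**Figure D5:**
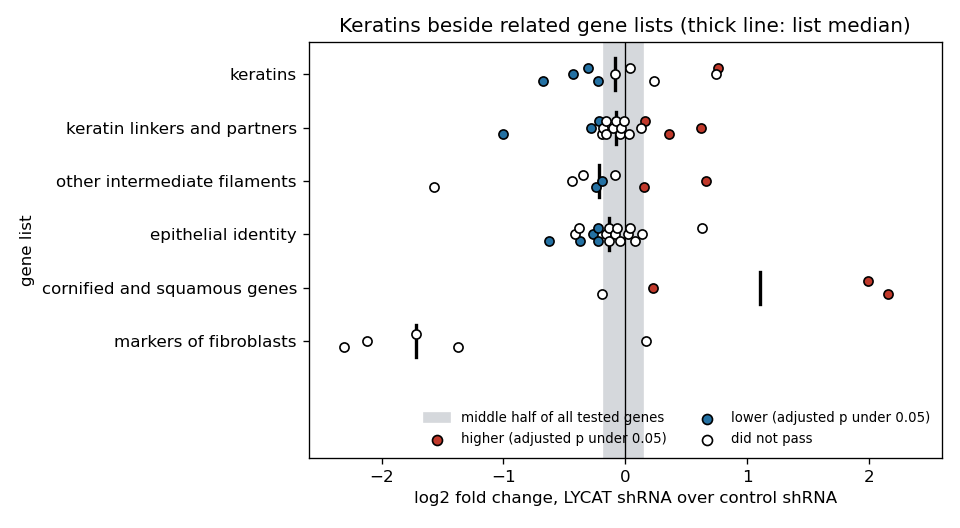
Log2 fold change of LYCAT shRNA over control shRNA for each tested gene of 6 lists, red where called higher, blue where called lower and white where the gene did not pass, with the list median as a thick line. The grey band, from -0.17 to 0.14, runs from the lower to the upper quartile of all tested genes; the keratin median of -0.08 lies within it, as do KRT10 and KRT19, while KRT7, KRT8, KRT18 and KRT80 lie below it and KRT17, KRT81 and KRT86 above it.

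In the fibroblast marker list, collagens and FN1 were present and varied between libraries, while no marker of endothelium or blood cells passed the low-count filter. Other members of the list were mostly low, and some of these also varied. FAP had 0 counts in every library, DCN 0 to 1, and PDGFRA, PDGFRB and POSTN 0 to 3. THY1 had 3, 2 and 1 counts with LYCAT shRNA and 22, 10 and 2 with control shRNA. LUM had 7, 1 and 7 counts with LYCAT shRNA and 5, 19 and 1 with control shRNA. ACTA2 stood at 8.04 CPM with LYCAT shRNA and 7.32 CPM with control shRNA. Whether any library held fibroblasts was not tested. Of 14 fibroblast markers 5 were tested and 0 passed with edgeR (1 at an unadjusted p under 0.05), while 1 passed as lower with DESeq2, 3 with limma-voom, 4 with robust=FALSE and 4 without control library 3. FN1, fibronectin, stood at 31.7, 8.71 and 20.3 CPM with LYCAT shRNA and 92.6, 162 and 19.7 CPM with control shRNA. COL1A1, a fibrillar collagen, stood at 25.9, 16.4 and 22.9 CPM with LYCAT shRNA and 59.4, 82.7 and 28.3 CPM with control shRNA. Summed markers of endothelium were 0.967 to 1.87 CPM with LYCAT shRNA and 1.82 to 4.50 CPM with control shRNA, and those of blood cells 0 to 0.425 CPM and 0 to 1.22 CPM in the same order. In bulk RNA, fewer cells of a type and less RNA per cell cannot be told apart.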

How the data were processed

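The authors deposited 1 table of raw counts per gene symbol for 6 libraries of H2122 cells. The tools in the submitters' processing notes are featureCounts 1.5.1, Bowtie2, BWA 0.7.15 and bcl2fastq 2.17, and the builds are hg19 and mm10. Those sources give neither the tools' roles nor the strand setting nor the treatment of multiply mapped reads. The column names spell LYCAT as cycat and were matched to the labels by name and number. The members and lists were chosen with earlier results of these data known.

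In R 4.3.3, edgeR 4.0.16 was used: filterByExpr kept 11097 genes, and TMM scaled the libraries. Groups were compared with edgeR's quasi-likelihood F test (glmQLFit, robust=TRUE), adjusted by Benjamini-Hochberg over all tested genes. The SE is the size of the log2 fold change divided by the square root of F, and intervals are 95%. The scripts were tested on simulated data. Counting error limits the precision most for the rarest keratins: KRT80 and rarer keratins had at most 63 counts per library.

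Genes named are all 10 keratins, LCLAT1, every other keratin tested, up to 4 called genes per direction of each list (the 2 most abundant where none was called) and called neighbours of the keratin clusters. Transcript lengths, 50-base words and coding identity came from GENCODE v29 (GRCh38), taking for each gene the longest transcript of the best APPRIS level; gene order came from RefSeq (GRCh38.p14). The files use another build, so no coordinates are given. The transcript sequences themselves are not reported here.

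Alternatives were DESeq2 size factors, library totals, no filter, limma-voom (limma 3.58.1), a filter at a mean of 5 CPM, DESeq2 1.42.0, robust=FALSE, glmTreat against 1.5-fold, a replicate block, leaving out each library, leaving out control libraries 1 and 2, and summing near-identical keratins.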

Additional observations from a re-analysis of the deposited data

How the results depend on the processing

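The direction of KRT7, KRT8, KRT17, KRT18, KRT80, KRT81 and LCLAT1 was the same under every alternative that kept the gene. Against a 1.5-fold change (glmTreat) none of the 5 changed keratins passed (log2 -0.30 for KRT7, -0.43 for KRT8, -0.23 for KRT18, -0.68 for KRT80 and 0.76 for KRT81), so 0 were called lower, 0 higher, and 148 of all genes. Without control libraries 1 and 2, KRT8 (-0.32), KRT18 (-0.10) and KRT80 (-0.73) did not pass, leaving 1 keratin lower, and 1129 of all genes were called; KRT10 (-0.049), KRT86 (-0.19) and FN1 (0.12) turned direction there without being called in either fit. With DESeq2, KRT80 did not pass (-0.69) and 1193 genes were called, against 2117 in the reported fit. The causes were not tested. With 1 library left out, KRT80 ranged from -0.86 to -0.56, KRT10 from -0.0051 to 0.091, KRT19 from -0.23 to 0.067 and KRT86 from -0.11 to 0.56, the last 3 around 0 and never called.

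Equal replicate numbers showed no sign of pairing: deviations from the group means correlated at 0.0051, -0.0645 and -0.0477 for numbers 1, 2 and 3. Because each group of 3 was centred on its own mean, this cannot show that the libraries were unpaired. With the replicate block the same 5 keratins were called (KRT7 -0.30, KRT8 -0.44, KRT18 -0.23, KRT80 -0.71, KRT81 0.77), KRT17 was again not called, and 2046 of all genes were called. Depth limits KRT86, KRT17, KRT80 and KRT6A most, and KRT15 could not be tested.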

Other observations

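Genes that flank the keratin clusters were also examined. Of the 20 nearest tested non-keratin genes, 5 on each side of the type II cluster on chromosome 12 and of the type I cluster on chromosome 17, 1 was called higher, 2 were called lower and 17 did not pass, with a median log2 fold change of -0.04. The 3 called of 20 stand beside 19.1% called among all tested genes, so nothing particular to the flanking genes is read from the count. SMAGP, a small membrane glycoprotein of epithelial cells, stood at 52.2 CPM with LYCAT shRNA and 33.3 CPM with control shRNA on average (log2 0.65, SE 0.109, edgeR adjusted p = 2.99e-06). CSAD, an enzyme of taurine synthesis, stood at 10.6 CPM with LYCAT shRNA and 16.7 CPM with control shRNA (log2 -0.68, edgeR adjusted p = 0.0048). CSAD did not pass without LYCAT shRNA library 1 or control library 1 (edgeR adjusted p = 0.0797 and 0.0871), nor with DESeq2 (adjusted p = 0.0526). Without control libraries 1 and 2 its log2 fold change was -0.52. TOP2A, a topoisomerase of dividing cells, stood at 1144 CPM with LYCAT shRNA and 1315 CPM with control shRNA (log2 -0.20, edgeR adjusted p = 0.000223).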
